A study of Mus musculus with 12 samples.

Results

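The genes described here are 10 transcriptional outputs of the Ras-ERK pathway: the phosphatase genes Dusp4, Dusp5 and Dusp6, the inhibitor genes Spry2, Spry4 and Spred1, the transcription factor genes Etv4, Etv5 and Fosl1, and Phlda1. They were listed by symbol, each was read from the probeset with the highest mean, and they are 10 of 19938 genes with a probeset. All 10 passed the filter on low values. Their RNA was measured on Affymetrix mouse gene arrays in 12 sarcomas, 4 in each of 3 groups, and the values are log2 expression normalized by RMA.

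All tumors were grafts of J2A cells, a single myofibroblast line of p16/p19/Vnn1 deficient C57BL/6 mice, grown under the skin of nude mice, which lack mature T cells. The labels give a harvest after 2 to 3 weeks that followed the growth of the tumor, and the paper a single day for all. Every group carried oncogenic human H-RasV12 fused to GFP, translated from an internal ribosome entry site of the same retroviral vector. R tumors carried this insert alone. VR tumors also carried mouse Vnn1 behind the cytomegalovirus promoter, and VdR tumors carried Vnn1dCr, its catalytically deficient form, in the same place. Vnn1 encodes vanin-1, a pantetheinase that splits pantetheine into pantothenate and cysteamine. No separate transduction per tumor is described, so the spread within a group covers grafts and not transduced populations. By the paper the RNA came from whole tumors, but the extraction label mentions sorted subsets. The ages of the hosts were not given in the sources used here.

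When Ras is active, it switches on Raf, MEK and ERK kinases in turn, and ERK drives transcription through ETS and AP-1 factors. Among the genes induced are inhibitors of the pathway itself: DUSP phosphatases remove phosphate from ERK, and Sprouty and Spred proteins act further up, at receptors, Ras and Raf. Their RNA is therefore widely read as an output of ERK in tumors with mutant Ras, although an oncogenic Ras that cannot hydrolyse GTP is itself little affected by feedback above it.

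The upstream sequences of Dusp5 and Dusp6 are shown because both encode phosphatases that act on ERK. Dusp5 was called between VR and R tumors and Dusp6 was not. Whether the genes differ from each other in this was not tested. Their 95% intervals overlap, from -0.66 to -0.26 for Dusp5 and from -0.44 to 0.08 for Dusp6. RefSeq windows on GRCm38.p6 were given for Spred1, Dusp6, Spry2, Etv5 and Dusp5. Each holds 250 bases before the start of the gene. In the Dusp5 window, chr19:53528895-53529144 on the plus strand, capitals mark 2 CArG boxes, the sites of serum response factor, which brings ERK-regulated ETS factors such as Elk1 to DNA. In the Dusp6 window, chr10:99262981-99263230 on the plus strand, capitals mark 3 matches to CGGAA on either strand. This string holds GGAA, the core of ETS sites, after a C.
Dusp5: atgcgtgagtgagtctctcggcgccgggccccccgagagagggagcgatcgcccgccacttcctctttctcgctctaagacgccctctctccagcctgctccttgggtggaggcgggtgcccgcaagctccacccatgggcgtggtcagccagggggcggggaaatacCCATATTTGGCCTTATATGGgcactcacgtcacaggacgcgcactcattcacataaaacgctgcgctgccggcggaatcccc
Dusp6: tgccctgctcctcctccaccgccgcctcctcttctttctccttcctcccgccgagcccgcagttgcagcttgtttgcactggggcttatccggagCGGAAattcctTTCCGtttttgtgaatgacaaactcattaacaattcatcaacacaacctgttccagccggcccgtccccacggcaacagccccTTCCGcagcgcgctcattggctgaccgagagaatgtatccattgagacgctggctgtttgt

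The 2 CArG boxes of Dusp5 lie side by side, from position -82 to -73 and from -72 to -63 relative to the start. At least 1 CArG box was found in 1.47% of 32851 windows of this length, and 2 or more in 6 of them, 0.0183%. CGGAA occurred in 25.2% of all windows, with 1 match each in Dusp5 and Spred1 besides the 3 in Dusp6. The match in Dusp5, from -10 to -6, is in lower case above. GGAA after other bases was not counted. The CArG box and CGGAA were picked after the Dusp5 and Dusp6 sequences had been read, so these shares are descriptions. None of the windows of these genes held the AP-1 site TGANTCA, the longer ETS site CCGGAA or TGAATGNA, a form of the Capicua octamer. These 3 motifs were searched on both strands and found in 6.75%, 12% and 3.2% of all windows in that order. Other forms of the Capicua octamer were not searched, so its absence from these windows and the 3.2% hold for TGAATGNA only. CCGGAA contains CGGAA, so matches to them are not separate. A match is a run of letters and not a shown binding site.

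Vnn1 RNA fitted the labels. It lay between 5.53 and 5.83 in the R tumors, 11.37 and 11.73 in the VdR tumors and 10.54 and 11.26 in the VR tumors. The VR tumors were thus all below the VdR tumors, with a log2 difference of -0.69 (limma, adjusted p = 0.0292). This call was lost in a fit of these groups alone (adjusted p = 0.0513), with 5 tumors left out for their skeletal muscle markers (0.188) and without VdR tumor 4 or 5 or VR tumor 2, 4 or 5 (0.0593 to 0.0781). Hras, the mouse counterpart of the transgene, was not analysed here. Macrophage markers were higher in both Vnn1 groups, where 13 of 14 passed the test for VR against R, 14 of 14 for VdR against R and 0 of 14 for VR against VdR. Their mean log2 level was at most 9.51 in R tumors and at least 10.20 in the tumors of both Vnn1 groups. Of 9 fibroblast and myofibroblast markers, 5 passed as higher for VR against R and 0 for VdR against R, with a mean level from 10.75 to 11.23 in R tumors and from 11.19 to 11.47 in VR tumors. For VR against VdR all 9 had a positive difference, and 1 passed, Thy1, with 0.93 (limma, adjusted p = 0.00792). The grafted cells are themselves a myofibroblast line, so these markers cannot tell graft cells from host cells. Of 8 endothelial markers, Kdr and Tek were higher in VR tumors compared with R and 6 were not called. The difference was positive for 7 and negative for 1, Cldn5, with -0.54 (95% interval -1.06 to -0.02, adjusted p = 0.133). The mean of the list ran from 8.84 to 9.50 in R tumors and from 9.36 to 9.73 in VR tumors. Tek was also higher in VR than in VdR, with 0.77 (adjusted p = 0.0188). In that comparison 7 of the 8 were not called, 6 differences were above 0 and 2 below, and the median of the list was 0.50. The 6 skeletal muscle markers had a mean above 8 in R tumors 2 and 5, VdR tumors 2 and 4 and VR tumor 2, where it lay between 8.56 and 9.51, and at most 6.79 elsewhere. Of 6 neutrophil markers 4 were under the filter, and of the 2 tested Csf3r was higher in VR tumors compared with R, with 0.76 (adjusted p = 0.0159). The epidermal mean stayed between 5.94 and 6.59. The part of these cell types in the results below was not tested. In bulk tissue, fewer cells of a type and less RNA per cell cannot be told apart.

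In VR tumors 5 of the 10 genes were lower than in R tumors and 0 were higher. These were Dusp4, Dusp5, Etv4, Fosl1 and Phlda1, and they span a nuclear phosphatase for MAP kinases, a nuclear phosphatase for ERK, an ETS factor, an AP-1 subunit and a PHLDA gene. Among all genes tested by limma, 7.48% were lower and 13.6% higher in VR than in R tumors (adjusted p under 0.05). The fold change was below 0 for all 10, with a median of -0.28 on the log2 scale against -0.01 over all genes tested. Of the 16573 genes tested, 8790 had a fold change below 0. Dusp6, Spry2, Spry4, Spred1 and Etv5 did not pass the test.

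In VdR tumors, compared with R tumors, Phlda1 was the only one of the 10 called, and it was lower. In this comparison 2.81% of all genes were lower and 6.58% higher, 465 and 1090 genes, which became 648 and 932 with cyclic loess. The median of the 10 was -0.09 against 0.0038 over all genes, with 6 below 0 and 4 above. Of all 16573 genes, 8096 were below 0. Between VR and VdR tumors Fosl1 alone was called, and it was lower in VR. There, 1.67% of all genes were lower and 1.77% higher, 277 and 293 genes, which became 152 and 255 with arrays centred on their medians. The median of the 10 was -0.25 against -0.02, with 9 below 0, and 9344 of all 16573 genes were below 0. VR and VdR were both set against the same R tumors, so the first 2 comparisons share their controls. The VR mean was the lowest of the 3 group means for 9 of the 10 genes. The share of all genes with this pattern was not counted. The 10 genes also correlate with each other, so they are not separate observations. The order was R, VdR, VR from high to low for Dusp4, Dusp5, Spry4, Etv4 and Phlda1, and VdR, R, VR for Dusp6, Spry2, Etv5 and Fosl1, whereas Spred1 was lowest in VdR. For Etv5 this rests on its brighter probeset. A further probeset gave R, VdR, VR, so the sign of VdR minus R differs between them.

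**Figure D1:**
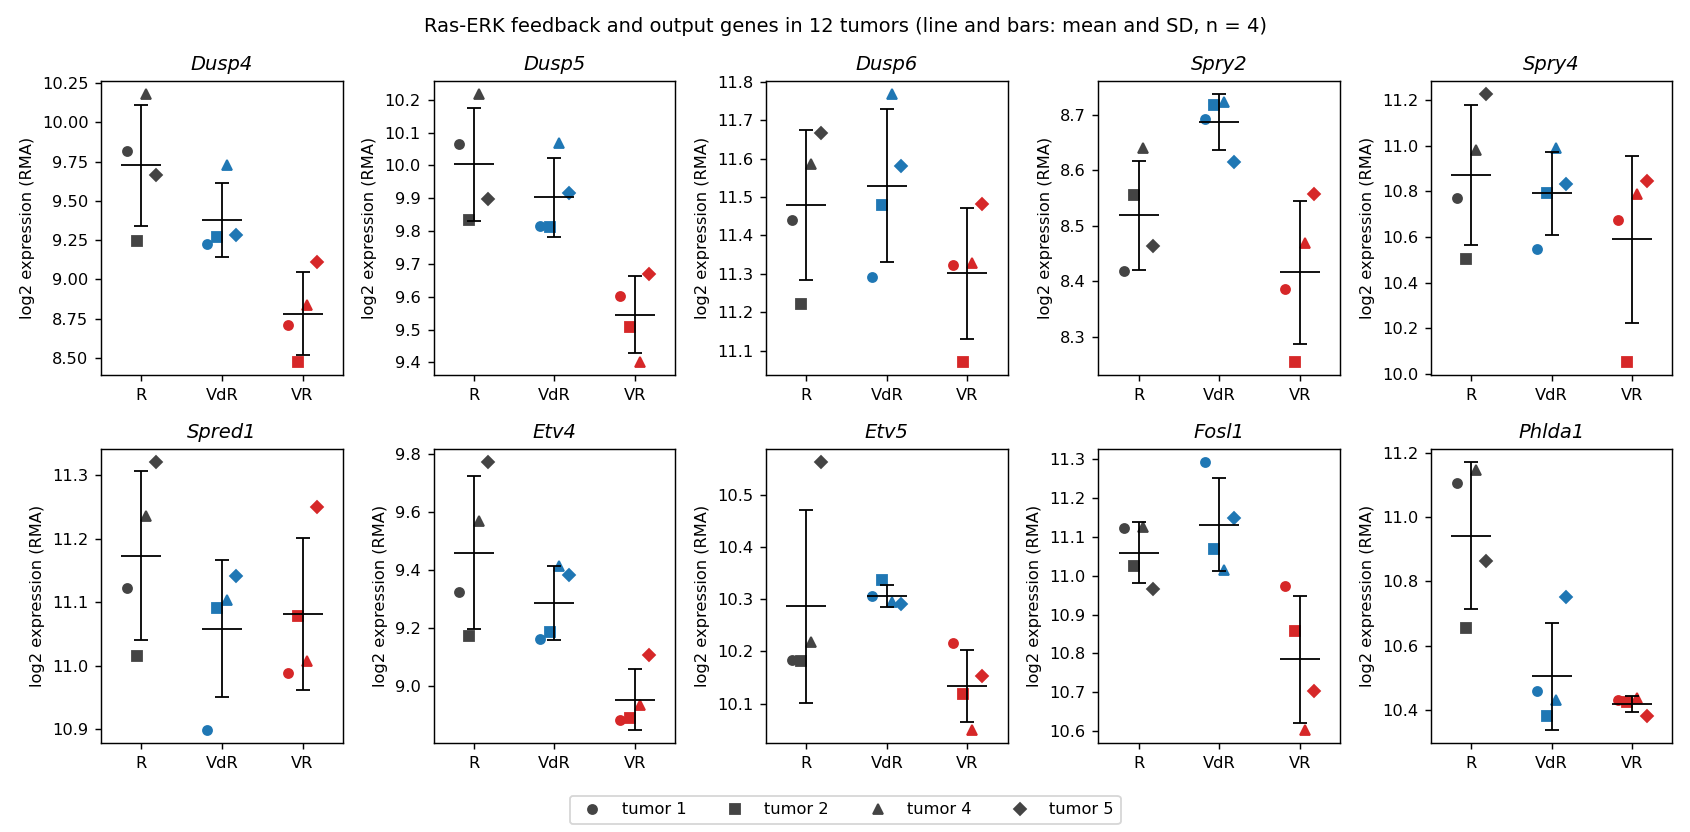
Log2 expression (RMA) of the 10 Ras-ERK feedback and output genes in each tumor, with symbols for the tumor numbers and a line and bars for the mean and SD of 4 tumors. All VR points of Dusp4, Dusp5, Etv4 and Phlda1 lie below all R points, while Dusp6, Spry4 and Spred1 overlap in all 3 groups.

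Dusp4 encodes a phosphatase of the nucleus that acts on ERK and other MAP kinases, and its differences between VR and both other groups were the largest of the 10. Its log2 values (probeset 10571312) were 9.82, 9.25, 10.18 and 9.66 in R tumors 1, 2, 4 and 5, 9.23, 9.27, 9.73 and 9.28 in the VdR tumors and 8.71, 8.47, 8.84 and 9.11 in the VR tumors. All VR tumors lay below all tumors of both other groups, while R and VdR tumors overlapped. The means were 9.73 ± 0.39 (SD, n = 4) in R, 9.38 ± 0.23 (SD, n = 4) in VdR and 8.78 ± 0.26 (SD, n = 4) in VR tumors. VR differed from R by -0.94 (SE 0.19, limma, adjusted p = 0.00413), so that R tumors held 1.92 times the VR level. Between VR and VdR the difference was -0.60 (95% interval -1.0005 to -0.19, adjusted p = 0.0986), and between VdR and R it was -0.35 (95% interval -0.75 to 0.06, adjusted p = 0.295). Of the VdR tumors, number 4 stood well above the others.

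Dusp5, whose product is restricted to the nucleus and acts on ERK alone, followed the same order on a smaller scale. The log2 values (probeset 10463945) were 10.07, 9.83, 10.22 and 9.90 in the R tumors, 9.82, 9.81, 10.07 and 9.92 in the VdR tumors and 9.60, 9.51, 9.40 and 9.67 in the VR tumors. No VR tumor reached any R or VdR tumor. The difference between VR and R was -0.46 (SE 0.09, limma, adjusted p = 0.00465), a level 1.37 times higher in R. It was -0.36 between VR and VdR (95% interval -0.56 to -0.16, adjusted p = 0.0534), just outside the threshold, and -0.10 between VdR and R (95% interval -0.30 to 0.10, adjusted p = 0.575). With array weights the adjusted p of Dusp5 between VR and VdR was 0.0285.

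Dusp6 encodes the cytoplasmic phosphatase for ERK and is one of the most used readouts of the pathway. Its values (probeset 10366043) were 11.44, 11.22, 11.59 and 11.67 in the R tumors, 11.29, 11.48, 11.77 and 11.58 in the VdR tumors and 11.32, 11.07, 11.33 and 11.48 in the VR tumors. The groups overlapped in every comparison. VR minus R was -0.18 (95% interval -0.44 to 0.08, adjusted p = 0.311), VR minus VdR -0.23 (95% interval -0.49 to 0.03, adjusted p = 0.336) and VdR minus R 0.05 (95% interval -0.21 to 0.31, adjusted p = 0.851). The interval for VR against R does not reach the difference estimated for Dusp4 and includes that of Fosl1.

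The Sprouty and Spred genes, whose products restrain signaling between receptors and Raf, gave no call in any comparison. Spry2 (probeset 10422227) was at 8.42, 8.56, 8.64 and 8.46 in the R tumors, 8.69, 8.72, 8.72 and 8.61 in the VdR tumors and 8.39, 8.25, 8.47 and 8.56 in the VR tumors. The VdR tumors were all above the VR tumors, with a VR minus VdR difference of -0.27 (95% interval -0.42 to -0.12, adjusted p = 0.055). VR and R tumors overlapped, with a difference of -0.10 (95% interval -0.26 to 0.05, adjusted p = 0.317), and VdR minus R was 0.17 (95% interval 0.01 to 0.32, adjusted p = 0.174).

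Spry4 (probeset 10458555) was at 10.77, 10.51, 10.98 and 11.23 in the R tumors, 10.55, 10.79, 10.99 and 10.83 in the VdR tumors and 10.68, 10.05, 10.79 and 10.85 in the VR tumors. VR tumor 2 stood lowest, and the rest of the VR tumors lay among those of the other groups. VR minus R was -0.28 (95% interval -0.68 to 0.12, adjusted p = 0.291), VR minus VdR -0.20 (95% interval -0.60 to 0.20, adjusted p = 0.601) and VdR minus R -0.08 (95% interval -0.48 to 0.32, adjusted p = 0.846). Its intervals were nearly as wide as those of Dusp4.

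Spred1 (probeset 10474671), which recruits the Ras inhibitor neurofibromin to the membrane, had values of 11.12, 11.01, 11.24 and 11.32 in the R tumors, 10.90, 11.09, 11.10 and 11.14 in the VdR tumors and 10.99, 11.08, 11.01 and 11.25 in the VR tumors. The 3 groups overlapped throughout, and its group means spanned 0.12, the least of the 10 genes. VR minus R was -0.09 (95% interval -0.27 to 0.09, adjusted p = 0.441), VdR minus R -0.12 (95% interval -0.29 to 0.06, adjusted p = 0.453) and VR minus VdR 0.02 (95% interval -0.16 to 0.20, adjusted p = 0.912).

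Etv4 and Etv5 encode closely related ETS factors of the PEA3 group, which ERK signaling induces and which carry part of its transcription. Etv4 (probeset 10391490) was at 9.33, 9.17, 9.57 and 9.77 in the R tumors, 9.16, 9.19, 9.41 and 9.38 in the VdR tumors and 8.88, 8.89, 8.94 and 9.11 in the VR tumors. Each VR tumor was below each R and each VdR tumor. VR minus R was -0.51 (SE 0.12, limma, adjusted p = 0.00895), a level 1.42 times higher in R. VR minus VdR was -0.33 (95% interval -0.58 to -0.08, adjusted p = 0.131) and VdR minus R -0.17 (95% interval -0.42 to 0.08, adjusted p = 0.414).

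Etv5 (probeset 10363901) was at 10.18, 10.18, 10.22 and 10.56 in the R tumors, 10.31, 10.34, 10.29 and 10.29 in the VdR tumors and 10.22, 10.12, 10.05 and 10.15 in the VR tumors. R tumor 5 stood above all others, and the VR tumors were all below the VdR tumors but not below the R tumors. The differences were -0.15 for VR minus R (95% interval -0.32 to 0.02, adjusted p = 0.192), -0.17 for VR minus VdR (95% interval -0.35 to -0.0008, adjusted p = 0.259) and 0.02 for VdR minus R (95% interval -0.15 to 0.19, adjusted p = 0.913). A further probeset of Etv5 had means of 10.00 ± 0.22 (SD, n = 4) in R, 9.94 ± 0.09 (SD, n = 4) in VdR and 9.77 ± 0.13 (SD, n = 4) in VR tumors. It followed the one used at r = 0.89 over the 12 tumors and gave no call either. The annotation pairs both probesets with the same transcript. Etv5 lies on chromosome 16, but the number of the brighter probeset is nearest to those of Dusp6 and Phlda1, on chromosome 10. The further probeset is 10438626. Whether the brighter one also reads a related locus was not tested, and the Etv5 values and correlations given here rest on it.

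Fosl1 encodes Fra-1, an AP-1 subunit that ERK both induces and stabilizes in cells with mutant Ras. Its log2 values (probeset 10460585) were 11.12, 11.02, 11.13 and 10.96 in the R tumors, 11.29, 11.07, 11.02 and 11.15 in the VdR tumors and 10.97, 10.86, 10.60 and 10.70 in the VR tumors. The VR tumors were all below the VdR tumors, and VR tumor 1 overlapped with R tumor 5 by a narrow margin. VR minus R was -0.27 (SE 0.09, limma, adjusted p = 0.0384), VR minus VdR -0.35 (SE 0.09, adjusted p = 0.0477) and VdR minus R 0.07 (95% interval -0.11 to 0.26, adjusted p = 0.679). Both calls lay close to the threshold. The call against R was lost without R tumor 1, 2 or 4 or VR tumor 2, 4 or 5, where the adjusted p lay between 0.0524 and 0.109. The call against VdR was lost without any of the VdR tumors or without VR tumor 2, 4 or 5, where it lay between 0.0657 and 0.122.

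Phlda1, a pleckstrin homology-like domain gene induced by growth factor and Ras signaling, was the only one of the 10 called for both VR and VdR against R. It was at 11.11, 10.66, 11.15 and 10.86 (probeset 10366346) in the R tumors, 10.46, 10.38, 10.43 and 10.75 in the VdR tumors and 10.43, 10.42, 10.44 and 10.38 in the VR tumors. All VR tumors lay below all R tumors, and VdR tumor 5 was the only VdR tumor that reached into the range of R. VR minus R was -0.52 (SE 0.11, limma, adjusted p = 0.00481), a level 1.44 times higher in R, and VdR minus R was -0.44 (SE 0.11, adjusted p = 0.0222), 1.35 times higher in R. The difference between VR and VdR was -0.09 (95% interval -0.32 to 0.14, adjusted p = 0.712). The call for VdR was lost without R tumor 1 or 4 or VdR tumor 1, 2 or 4, with an adjusted p between 0.0540 and 0.0734.

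**Figure D2:**
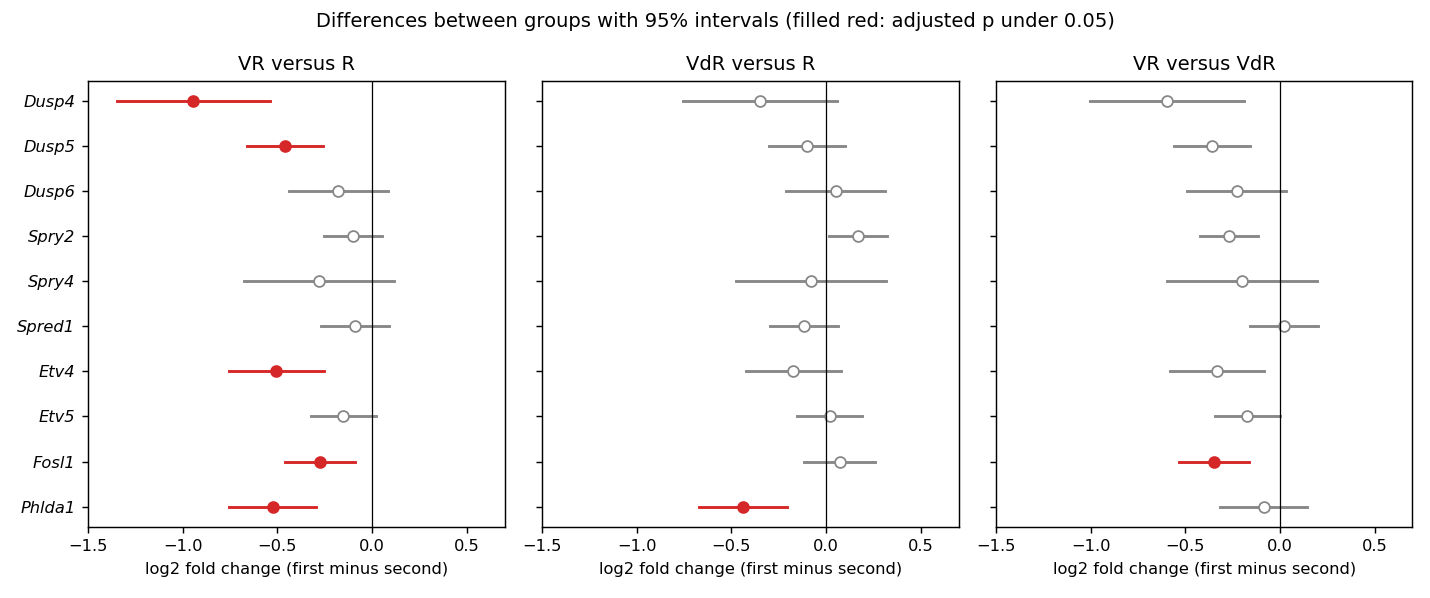
Log2 fold change of each gene in the 3 comparisons (first group minus second), with 95% intervals from limma over all 12 tumors. Filled red points passed at an adjusted p under 0.05: Dusp4, Dusp5, Etv4, Fosl1 and Phlda1 for VR versus R, Phlda1 for VdR versus R and Fosl1 for VR versus VdR.

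Without the 5 tumors whose skeletal muscle markers were above 8, a setting added once the values were known, 4 of the 10 genes were called between VR and R tumors, and Fosl1 had an adjusted p of 0.0634. Dusp4 then differed by -1.11 between VR and R (adjusted p = 0.00317) and by -0.74 between VdR and R (adjusted p = 0.032). This left 2 R, 2 VdR and 3 VR tumors. R tumor 2 was the lowest R tumor for 8 of the 10 genes, VdR tumor 4 the highest VdR tumor for 6 and VR tumor 5 the highest VR tumor for 7. R tumors 4 and 5 shared the highest R values, with 5 genes each.

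Most pairs of the 10 genes correlated positively from tumor to tumor. Of 45 pairs, 42 had a Pearson r above 0 over the 12 tumors and 24 were above 0.5, with a median of 0.52 and a range from -0.17 to 0.94. These values include the differences between groups. Dusp4 and Dusp5 had the highest, 0.94. With the group means removed, 33 pairs were above 0 and 15 above 0.5, with a median of 0.38, and the highest was 0.92 between Dusp6 and Spry4. Spred1 and Etv4 then had 0.86 and Dusp6 and Etv4 0.85. Fosl1 stood apart: with the group means removed it was below 0 with 7 of the other 9 genes, down to -0.48 with Spry4. These values are descriptions over tumors that share host tissue, arrays and normalization, and they were not set against pairs of other genes.

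**Figure D3:**
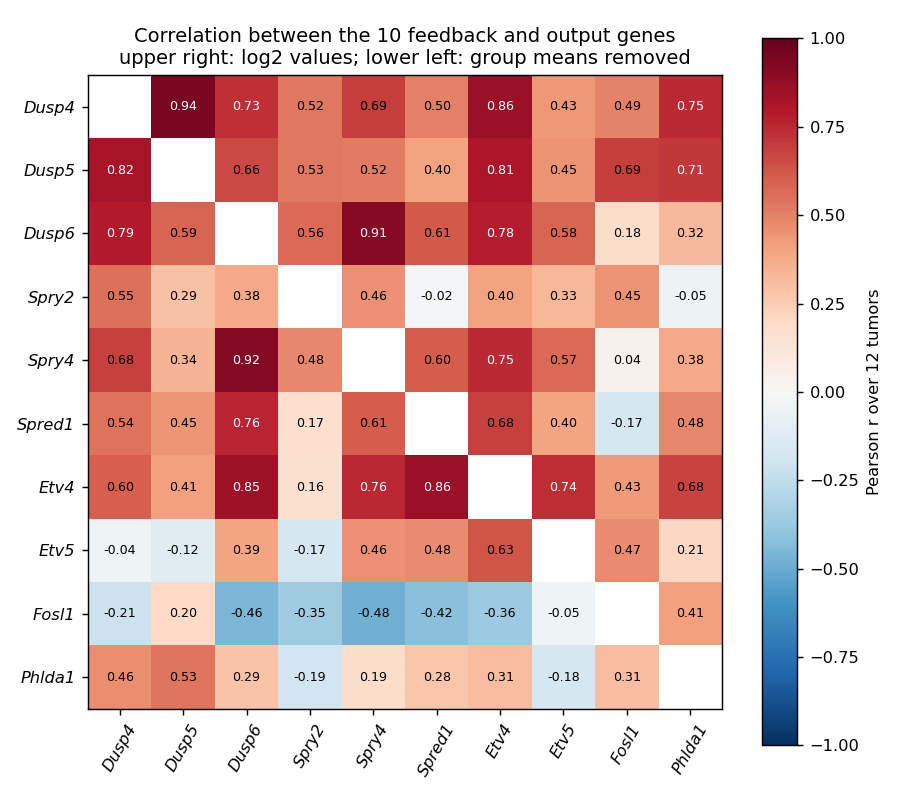
Pearson r between the 10 genes over 12 tumors, from log2 values in the upper right and with group means removed in the lower left (colour scale from -1 to 1). Dusp4, Dusp5, Dusp6, Spry4, Spred1 and Etv4 are above 0 with each other in both triangles, and the row of Fosl1 is mostly below 0 in the lower left.

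Among all genes tested, those with the most similar pattern differed between the 10. Mxi1, a Max-binding antagonist of Myc, and Grhpr, a glyoxylate reductase, were nearest to Dusp4, both at r = 0.97 over the 12 tumors, and Il17rd, which encodes Sef, a known inhibitor of Ras-ERK signaling, had 0.96. Il17rd was at 7.93, 7.73, 8.26 and 8.04 in the R tumors, 7.70, 7.70, 7.91 and 7.74 in the VdR tumors and 7.58, 7.33, 7.48 and 7.57 in the VR tumors. Its VR tumors were below all others. Since these genes were picked for following the 10 over the same tumors, their differences between groups come with the choice and are given as descriptions with no test. Nearest to Dusp5 were Chrna1, a subunit of the muscle acetylcholine receptor (0.97), Hspa2, a heat shock protein (0.96), and Plekhh1 (0.96). Dusp6 was followed by Qsox1, a sulfhydryl oxidase (0.93), 4921524J17Rik (0.92) and Csrnp2 (0.91). For Spry2 these were Fut11 (0.94), Calm3, a calmodulin gene (0.88), and C1ql1 (0.88), and for Spry4 they were Cypt2 (0.91), Alg10b (0.91) and Dusp6 itself (0.91).

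Spred1 was nearest to Clip2, Gtf3c3 and Smyd3, each at 0.90. Etv4 had Tead2, a factor of the Hippo pathway, Slc16a1, the monocarboxylate transporter MCT1, and Mogat2, each at 0.96. The Slc16a1 difference was -0.82 for VR minus R and -0.62 for VR minus VdR. Etv5 had Dcaf7 (0.94), Efl1 (0.94) and the deacetylase gene Hdac6 (0.93), and Fosl1 had Msx3, Adam30 and Ruvbl2 (0.90, 0.90 and 0.88). Phlda1 was followed by Amdhd1 (0.95), the neuropeptide gene Nmu (0.95) and Aig1 (0.94). Nmu differed from R by -0.90 in VR and -0.96 in VdR tumors.

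Of 98 other genes of the pathway, 89 were tested, and the calls went both ways. Between VR and R tumors 14 were lower and 9 higher, with a median of -0.03. Between VdR and R tumors 2 were lower and 4 higher, and between VR and VdR 3 were lower and 2 higher. With 1 tumor left out the calls of these last 2 comparisons, 6 and 5 in all, ranged from 2 to 10 and from 2 to 4, and array weights gave 15 for VdR versus R and 39 for VR versus R. The shares among all genes given above are the background to these counts.

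The other MAP kinase phosphatases, Sprouty and Spred genes had few calls between VR and R tumors, and all were lower. Of 9 phosphatase genes, Dusp2 was lower, with -0.39 (SE 0.12, limma, adjusted p = 0.031) and Dusp14 with -0.36 (SE 0.10, adjusted p = 0.0238), and 7 did not pass. Of the 4 other Sprouty and Spred genes, Spred3 was lower, with -0.27 (SE 0.07, adjusted p = 0.0214). Spry1, a feedback inhibitor like its relatives above, had a positive difference of 0.47 (95% interval 0.08 to 0.87, adjusted p = 0.0866). Its values were 9.36, 9.38, 9.81 and 10.14 in the R tumors, 9.89, 9.95, 9.87 and 10.03 in the VdR tumors and 10.23, 9.65, 10.25 and 10.45 in the VR tumors. No Sprouty or Spred gene was called in the other comparisons.

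Among 8 further ETS genes, Elk1, whose product ERK phosphorylates at serum response elements, was lower in VR than in R tumors, with -0.23 (SE 0.06, limma, adjusted p = 0.014), and Etv6, a repressor, with -0.33 (SE 0.09, adjusted p = 0.0185). The remaining 6 did not pass, and none of the 8 was called in the other comparisons. Of 6 further AP-1 genes Fos was the only one called. It was at 7.29, 7.03, 7.17 and 6.95 in the R tumors, 7.23, 7.15, 7.43 and 7.17 in the VdR tumors and 7.47, 7.40, 7.83 and 8.03 in the VR tumors. All VR tumors were above all R tumors, with a difference of 0.57 (SE 0.13, adjusted p = 0.00875), opposite in sign to that of Fosl1. Egr1, an immediate early gene like Fos, differed by 0.39 (95% interval 0.10 to 0.67, adjusted p = 0.0547).

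Phlda2, a relative of Phlda1 best known as an imprinted gene that limits placental growth, was at 7.31, 7.19, 7.49 and 8.29 in the R tumors, 7.55, 7.40, 8.08 and 7.80 in the VdR tumors and 6.57, 6.28, 6.42 and 6.22 in the VR tumors. The VR tumors were far below both other groups, which overlapped. VR minus R was -1.20 (SE 0.21, limma, adjusted p = 0.00227) and VR minus VdR -1.33 (SE 0.21, adjusted p = 0.0122). Phlda3 was not called in any comparison. Phlda1 was thus called for VR and VdR against R, and Phlda2 for VR against R and against VdR.

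Of 17 other output genes tested, 5 were lower and 1 higher in VR than in R tumors. Ier3, an early response gene whose product ERK phosphorylates, was lower, with -1.60 (SE 0.28, limma, adjusted p = 0.00218), the largest difference among all pathway genes examined. It was at 8.94, 8.07, 9.42 and 8.35 in the R tumors, 7.26, 7.71, 8.07 and 8.07 in the VdR tumors and 6.62, 7.16, 7.12 and 7.48 in the VR tumors. Every VR tumor was below every R tumor. VdR minus R was -0.92 for Ier3 (95% interval -1.53 to -0.31, adjusted p = 0.0617). The EGF family ligand Ereg, the cytokine Lif, the early response factor Egr3 and the urokinase receptor gene Plaur were also lower. For Ereg the difference from R was -0.71 in VR tumors and -0.63 in VdR tumors, the latter not called (limma, adjusted p = 0.0549). Plaur was the only one of the 17 called between VR and VdR, with -0.45 (SE 0.07, adjusted p = 0.0125). Mcl1, an anti-apoptotic gene, was higher in VR by 0.35 (SE 0.06, adjusted p = 0.00201) and in VdR by 0.24 (SE 0.06, adjusted p = 0.0282), and Sh2b3 was higher in VdR. Ccnd1, the cyclin gene that ERK induces at the start of the cell cycle, differed by -0.03 between VR and R (95% interval -0.15 to 0.09, adjusted p = 0.718).

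In the cascade itself 3 of 28 tested genes were lower and 3 higher in VR than in R tumors. The lower ones were Map2k1, which encodes MEK1, the Raf activator Shoc2, with -0.22 (SE 0.05, limma, adjusted p = 0.00909), and the GTPase activator Rasa1. Higher were the adaptor gene Gab1, with 0.32 (SE 0.07, adjusted p = 0.00857), the exchange factor Sos2 and the Raf inhibitor Pebp1. In VdR tumors Rasa1 and Rasal2 were lower than in R, and Araf and Gab1 were higher. Rasal2 had the largest of these differences, -0.50 (SE 0.09, adjusted p = 0.00523). Between VR and VdR tumors Sos1 was higher and Rasa3 lower in VR.

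Of 15 receptor tyrosine kinase genes tested, Axl, Pdgfra, Pdgfrb and Kit were higher in VR tumors compared with R and 0 were lower. Axl had a difference of 0.31 (SE 0.05, limma, adjusted p = 0.000928) and was also higher in VR than in VdR, by 0.22 (SE 0.05, adjusted p = 0.0303). Pdgfra had 0.30 (SE 0.07, adjusted p = 0.0118) and Kit 0.48 (SE 0.14, adjusted p = 0.0282). Pdgfra and Pdgfrb also stand in the fibroblast list whose levels are given above. None of the 15 was called between VdR and R.

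**Figure D4:**
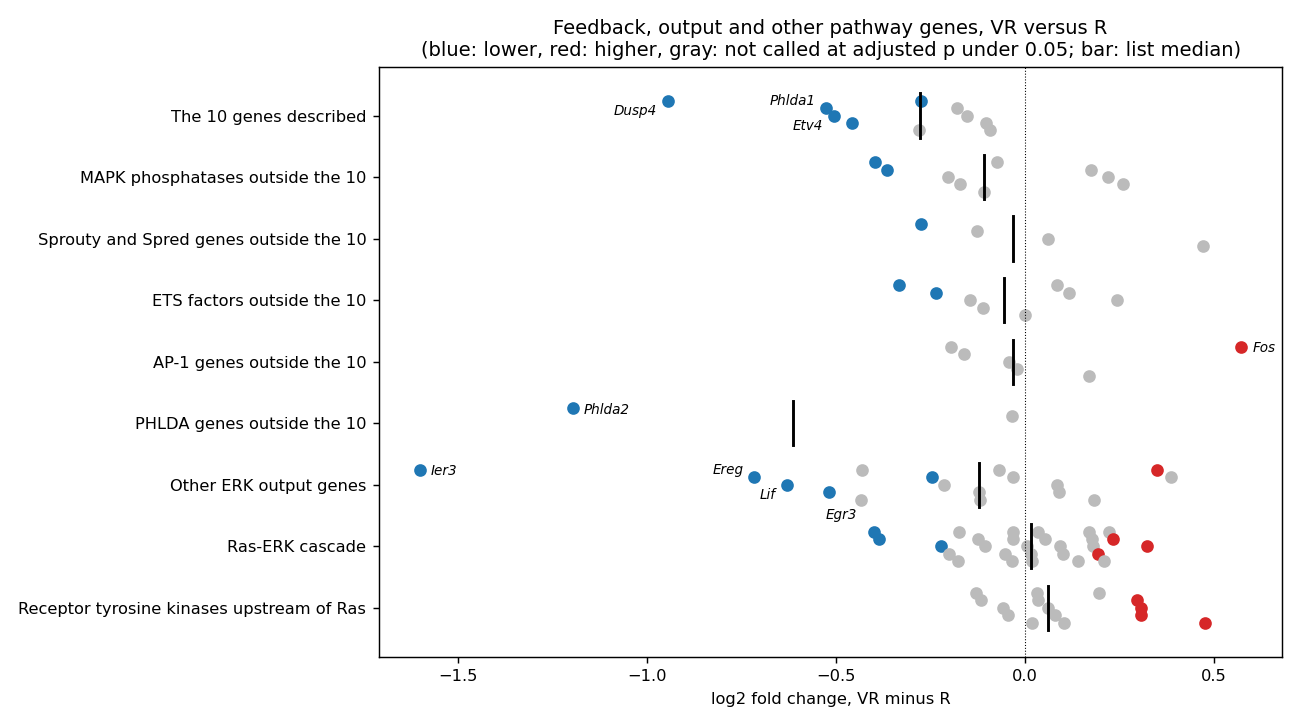
Log2 fold change between VR and R tumors of the 10 genes and of 89 other tested genes of the pathway, 1 point per gene and 1 row per list, spread vertically for legibility. Ier3 (-1.60) and Phlda2 (-1.20) lie farthest to the left and Fos (0.57) farthest to the right, and the black bars mark list medians, -0.28 for the 10 genes.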

How the data were processed

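RNA of 12 tumors, 4 per group, was hybridised by the authors to Affymetrix mouse gene arrays. The deposited log2 values, 1 per probeset, were made by the authors with RMA (background correction, quantile normalization and summarization), and the submitters' processing notes name RMA and oligo without versions. Since RMA equalizes the distributions, a change in total RNA per cell would not be seen. Of 35556 probesets, the platform annotation gave 1 symbol to 21789, several to 1621 and none to 12146, and only the first were named. Array medians lay between 6.66 and 6.77, and arrays of a group correlated at 0.988 to 0.996. The number of arrays limits the precision. No batch or scan date was given in the sources used here.

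Groups and tumor numbers came from the labels. A gene was read from its brightest probeset on average. Testing was limited to the 16573 genes with at least 4 arrays above 5.38 (percentile 25 of the whole table). Comparisons used limma 3.58.1 in R 4.3.3 (lmFit and eBayes, 1 coefficient per group, all 12 arrays), with Benjamini-Hochberg adjustment over all genes tested and a threshold of 0.05. The script was tested on simulated data. The genes, lists and tests were chosen with earlier results of these data known. Named are the 10 genes, pathway genes called in at least 1 comparison (at most 3 per list with statistics), Hras, Ccnd1, Egr1, Fos and Spry1, and the 3 genes with the highest Pearson r to each of the 10. Phlda3 was named, and the differences of Ereg and Cldn5 were added, after their values were seen. Some genes of the rule are not reported here. The fit was repeated with another filter (none, or percentile 50), probeset means, trended and robust moderation, array weights, median centring, cyclic loess, a block for the tumor number, the compared groups alone and each tumor left out. The further probeset of Etv5 and leaving out tumors with muscle signal were added after the data were seen.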

Additional observations from a re-analysis of the deposited data

Results flagged for a closer look

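In each group the highest and the lowest tumor of each of the 10 genes was checked for its gap to the nearest other tumor, as a share of the range of the group (Dixon's test). Of 30 sets of 4 tumors, 2 passed, and chance alone passes about 1 in 20. Dusp4 in VdR tumor 4 was at 9.73, with a gap of 0.888 of the range to the next VdR tumor. Etv5 in R tumor 5 was at 10.56, with a gap of 0.902 of the range to the next R tumor. Both tumors are among the 5 with skeletal muscle signal, whose part in these values was not tested.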

How the results depend on the processing

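Of 543 differences of the 10 genes recomputed under alternatives, 512 stayed on their side of the threshold, 25 lost their call, 6 gained one and 0 changed sign while called. Dusp4, Dusp5, Etv4 and Phlda1 kept their calls between VR and R tumors in all 18 alternatives. The call of Fosl1 against VdR was lost in 12 of 18, that against R in 7, and that of Phlda1 between VdR and R in 6. The causes were not tested. Signal over background was not given in the values used here.

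Of the 10 genes, the number called between VR and VdR (1) was 0 with no filter, with arrays centred on their medians, with cyclic loess and without muscle-bearing tumors, 2 with the stricter filter or array weights and 3 with the tumor number as a block. Between VdR and R (1) it was 0 with only the groups compared and 2 without muscle-bearing tumors. With 1 tumor left out at a time it ranged from 4 to 5 for VR versus R, 0 to 1 for VdR versus R and 0 to 1 for VR versus VdR. Of the other pathway genes, 39 were called with array weights between VR and R (23). Between VdR and R (6) there were 15 with array weights, 3 with median centring or only the groups compared, 10 with the block and 10 without muscle-bearing tumors. Between VR and VdR (5) there were 3 with median centring, 2 with only the groups compared and 1 without muscle-bearing tumors. With 1 tumor left out these numbers ranged from 15 to 23, 2 to 10 and 2 to 4. The count fell to 15 without VR tumor 4 in the first comparison. In the second it was 10 without R tumor 2 and 2 or 3 without R tumor 1 or 4 or VdR tumor 1 or 2, and in the third 2 or 3 without VdR tumor 4 or 5 or VR tumor 2, 4 or 5. Vnn1 differed between VR and VdR by -0.69 with only the groups compared (adjusted p = 0.0513), by -0.56 without muscle-bearing tumors (adjusted p = 0.188), and by -0.81 to -0.57 with 1 tumor left out, where the call was lost without VdR tumor 4 or 5 or VR tumor 2, 4 or 5. Over all genes, array weights called 5667, 2595 and 884 against 3500, 1555 and 570, and leaving out muscle-bearing tumors called 7 between VR and VdR. With 1 tumor left out it was 2458 to 3458, 961 to 1775 and 86 to 554, the last being lowest without VR tumor 4.

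Tumor numbers are shared by the groups. Same-numbered tumors deviated together at more than 0.1 in 8 of 12 pairs of tumors, and the own number was the best match in 5 of the 12. Number 2 was the best match in every comparison, with r = 0.40 for VR and R, 0.36 for VdR and R and 0.23 for VR and VdR. R tumor 2, VdR tumor 2 and VR tumor 2 all had skeletal muscle signal, whose part in this was not tested. The main fit did not take the numbers as pairing, and the block was run as an alternative. With the block, Dusp4 and Etv4 passed between VR and VdR (adjusted p = 0.0436 and 0.0425) beside Fosl1.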
